A study of Homo sapiens with 3 samples.

Results

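Coregulators are the proteins through which the estrogen receptor and its relatives turn genes on or off. The 9 genes described here are the p160 coactivators NCOA1, NCOA2 and NCOA3, the further coactivator NCOA7, the acetyltransferases CREBBP and EP300, the arginine methyltransferase CARM1, and the corepressors NCOR1 and NRIP1. They were chosen by name from their known roles, though with earlier results of these data known. Each was found as 1 of the 26485 entries of the gene count table. The cells were CAMA1, an established human breast cancer line that is described as estrogen receptor-positive and FGFR1-amplified, at a passage below 10. Before lysis the cultures had spent 48 h deprived of estradiol. The series has 1 group of 3 libraries, described as biological replicates, with no estradiol-treated or other control group, so no effect of estradiol can be read from it.

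A steroid receptor that has bound its hormone presents a groove on its surface to which short helical LXXLL stretches of coactivators attach (L is leucine and X any residue). The p160 coactivators attach in this way and bring in CREBBP and EP300, which acetylate histones, and CARM1, which methylates arginines of histones and of other coregulators. Without hormone, or with an antagonist bound, receptors can instead hold corepressors: NCOR1 attaches through CoRNR boxes, a related pattern rich in isoleucine, and carries the histone deacetylase HDAC3. NRIP1 (RIP140) uses LXXLL stretches like a coactivator but acts mostly as a repressor, and in breast cancer cells it is a known target of estrogen. NCOA3 (AIB1, amplified in breast cancer 1) was first found as a gene with extra copies in breast tumors.

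Stretches of these patterns are given as coding DNA of GENCODE v29 transcripts on GRCh38. LXXLL occurs in the p160 genes, CREBBP, EP300, NRIP1 and NCOR1, but also in 45.2% of proteins at large. The stretches shown all lie in coding exons. Each run has 45 bases from 5′ to 3′ on the coding strand, and capitals mark the 15 bases of the pattern itself. The first 6 are the central LXXLL stretches of NCOA3, the highest of the 9 genes by mean level, and of its relative NCOA1.
NCOA3 residues 621 to 625, chr20:47636232-47636276, plus strand: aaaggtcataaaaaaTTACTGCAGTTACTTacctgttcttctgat
NCOA3 residues 685 to 689, chr20:47636424-47636468, plus strand: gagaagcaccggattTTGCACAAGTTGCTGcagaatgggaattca
NCOA3 residues 738 to 742, chr20:47636583-47636627, plus strand: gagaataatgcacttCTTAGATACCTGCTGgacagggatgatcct
NCOA1 residues 633 to 637, chr2:24707352-24707396, plus strand: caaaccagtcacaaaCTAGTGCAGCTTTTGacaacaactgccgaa
NCOA1 residues 690 to 694, chr2:24707523-24707567, plus strand: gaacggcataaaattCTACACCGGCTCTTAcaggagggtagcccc
NCOA1 residues 749 to 753, chr2:24707700-24707744, plus strand: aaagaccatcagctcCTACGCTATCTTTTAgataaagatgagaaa

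In NCOA3 these 3 stretches lie 64 and 53 residues apart in exon 12, in NCOA1 57 and 59 residues apart in exon 11, and in NCOA2, whose sequence is not printed, 49 and 55 residues apart in exon 11. Taken in order, the 3 pairs of NCOA1 and NCOA3 runs shared 23, 23 and 22 of 45 bases and 6, 9 and 8 of 15 residues. Over the whole proteins (1399, 1464 and 1424 residues for NCOA1, NCOA2 and NCOA3), identity at aligned residues was 46.0% between NCOA1 and NCOA2, 43.5% between NCOA1 and NCOA3 and 48.2% between NCOA2 and NCOA3.

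CREBBP and EP300 were closer, at 66.1% identity over 2314 aligned residues, and are shown by the first and second of their 3 LXXLL stretches.
CREBBP residues 70 to 74, chr16:3850858-3850902, minus strand: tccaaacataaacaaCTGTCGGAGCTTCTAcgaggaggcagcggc
EP300 residues 81 to 85, chr22:41117318-41117362, plus strand: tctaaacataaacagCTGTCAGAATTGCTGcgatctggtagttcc
CREBBP residues 358 to 362, chr16:3793501-3793545, minus strand: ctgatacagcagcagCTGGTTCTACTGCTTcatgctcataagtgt
EP300 residues 342 to 346, chr22:41127589-41127633, plus strand: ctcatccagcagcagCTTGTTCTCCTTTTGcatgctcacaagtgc

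The first pair shared 31 of 45 bases and 13 of 15 residues, and the second pair 36 bases and all 15 residues, so none of the base differences in the second pair changed a residue. The third pair shared 27 bases and 10 residues. The second stretch and the last were 1709 residues apart in both proteins.

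NRIP1 held the most LXXLL stretches of the 9, and NCOR1 the most CoRNR-type stretches (isoleucine or leucine, any 2 residues, isoleucine or valine, isoleucine), of which 2 near its end are shown beside 3 of NRIP1.
NRIP1 residues 21 to 25, chr21:14968103-14968147, minus strand: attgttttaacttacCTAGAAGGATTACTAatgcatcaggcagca
NRIP1 residues 713 to 717, chr21:14966027-14966071, minus strand: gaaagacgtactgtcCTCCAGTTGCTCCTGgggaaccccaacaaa
NRIP1 residues 936 to 940, chr21:14965358-14965402, minus strand: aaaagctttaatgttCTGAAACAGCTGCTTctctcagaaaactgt
NCOR1 residues 1933 to 1937, chr17:16061456-16061500, minus strand: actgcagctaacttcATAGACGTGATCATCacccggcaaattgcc
NCOR1 residues 2263 to 2267, chr17:16039572-16039616, minus strand: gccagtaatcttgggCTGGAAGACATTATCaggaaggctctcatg

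NRIP1 had 10 LXXLL stretches between residues 21 and 940 of 1158, counting a pair that starts at residues 500 and 501 and overlaps. Its whole coding sequence lies in exon 4, against 19 to 21 coding exons in the p160 genes and 45 in NCOR1. NCOA1 had 6 stretches, NCOA3 5, NCOA2 4, CREBBP and EP300 3 each, NCOR1 1, and NCOA7 and CARM1 0. Among 19382 translated proteins, 45.2% held at least 1 LXXLL, which makes a single match common, while 0.361% held as many as NRIP1, 1.97% as many as NCOA1, 3.28% as many as NCOA3, 5.89% as many as NCOA2 and 10.8% as many as CREBBP or EP300. Such counts are more common in long proteins: among proteins of 0.8 to 1.25 times its length, the share with as many was 0.518% for NRIP1, 5.76% for NCOA1, 9.12% for NCOA3, 16.5% for NCOA2, 45.3% for CREBBP and 44.6% for EP300. NCOR1 had 5 CoRNR-type stretches, a number reached by 0.81% of all proteins and 9.61% of those of like length, and 1 each was found in CARM1 and NRIP1, as in 31.6% of proteins. A match to the pattern is a description of the letters and does not show that a receptor binds there.

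**Figure D1:**
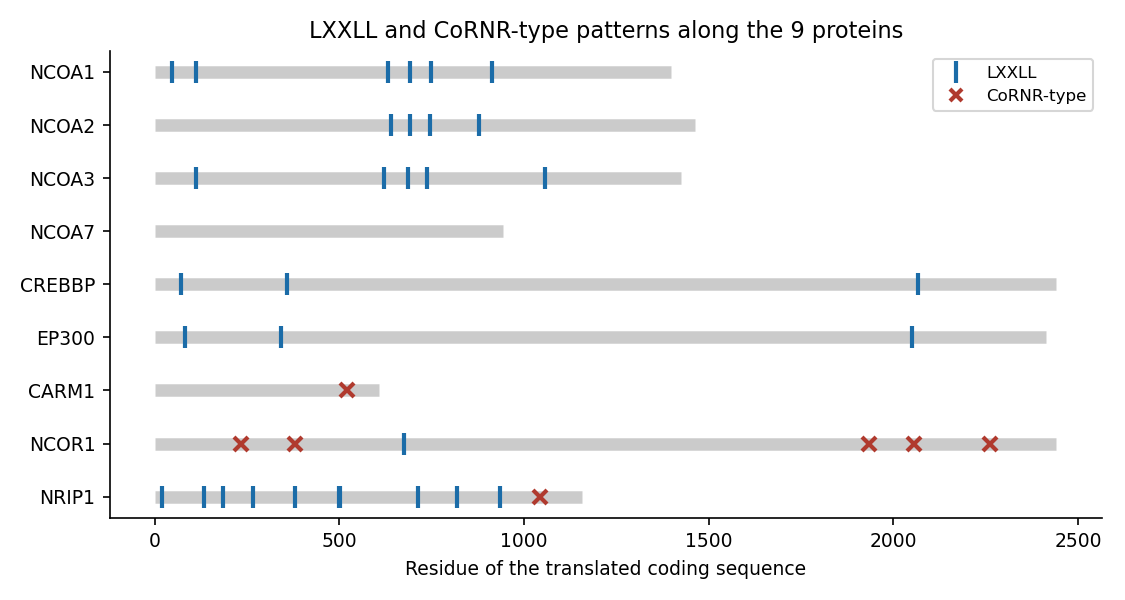
Position of LXXLL (blue ticks) and CoRNR-type patterns (red crosses) along the 9 translated proteins; grey bars are drawn to the length of each protein and the horizontal axis counts residues from the first. The 3 central ticks of NCOA1, NCOA2 and NCOA3 fall at like places between residues 621 and 753, NRIP1 carries 10, and NCOR1 has 3 crosses between residues 1933 and 2267.

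All 9 genes were transcribed in CAMA1 cells. Each reached at least 10 counts in every library, as did 67.4% of 19021 protein-coding entries, and 8 of the 9 reached a mean of 10 TPM, against 47.9% of protein-coding entries. TPM is a level: counts divided by gene length and scaled to the same total in each library, so that genes can be set beside each other. In such bulk RNA, fewer expressing cells and less RNA per cell cannot be told apart. The median over the 9 was 40.2 TPM and that over all protein-coding entries 8.09 TPM. Among protein-coding entries with at least 10 counts in every library, as all of the 9 had, the median was 25.8 TPM. Libraries totalled 26473939, 26592335 and 30745412 counts, and luminal epithelial markers matched the labelled cells: 8 of 8 were at 10 TPM or above, led by the keratin genes KRT19 (3256 ± 605 TPM, SD, n = 3) and KRT8 (2470 ± 140 TPM). Of 23 markers of basal, fibroblast, immune, endothelial and adipocyte cells only COL3A1 (163 ± 23.4 TPM) and COL1A1 (10.5 ± 0.270 TPM) passed 10 TPM, while the fibroblast genes COL1A2, DCN and LUM had no counts in any library. Of the other 4 kinds, the summed level per library ran from 14.2 to 15.9 TPM for basal, 8.67 to 11.2 TPM for immune, 0.0719 to 0.253 TPM for endothelial and 0.761 to 0.954 TPM for adipocyte markers. All errors below are SD over the 3 libraries.

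By transcript level, NCOA3 and NCOA2 were the highest p160 coactivator genes in these cells, and NCOA1 stood far below both. NCOA3 (chromosome 20, 47501857 to 47656877) had levels of 75.4, 73.9 and 71.3 TPM in replicates 1, 2 and 3, on 5997, 5923 and 6723 counts. NCOA2 (TIF2, GRIP1) had 68.5, 69.9 and 72.8 TPM on 4176, 4294 and 5261 counts, and NCOA1 (SRC-1, the first p160 coactivator described; chromosome 2, 24584477 to 24770701) 17.2, 15.9 and 14.8 TPM on 1182, 1103 and 1211 counts. NCOA3 and NCOA2 overlapped, NCOA3 being higher in 2 of 3 libraries, whereas every value of NCOA1 lay below every value of NCOA3 and NCOA2.

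NCOA3 was 4.61-fold above NCOA1, with 4.39 to 4.81-fold in single libraries (log2 ratio 2.21 ± 0.07), and NCOA1 stood at −2.14 ± 0.15 on the log2 scale against NCOA2. The log2 ratio of NCOA3 over NCOA2 was 0.06 ± 0.09, and the ratio ran from 0.98 to 1.1 over libraries, so these data did not separate these levels. Ratios were formed within each library from TPM with 0.01 added. For 7 ratios tested, the smallest exact two-sided sign-flip permutation p that 3 libraries can give is 0.25. The ratios to NCOA1 and of NCOA1 to NCOA2 reached it (adjusted p = 0.292 over the 7), and NCOA3 over NCOA2 had an exact permutation p of 0.5 (adjusted p = 0.5). No ratio could pass 0.05 in this design.

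As shares of the summed p160 level, 159.9 ± 1.08 TPM, NCOA3 made up 46.0 ± 1.01%, NCOA2 44.0 ± 1.65% and NCOA1 9.98 ± 0.662%. On counts scaled to library size without division by length (CPM) the shares were 52.0 ± 0.966%, 38.2 ± 1.56% and 9.78 ± 0.617%. The place of NCOA1 was therefore the same on either scale, and on CPM the shares of NCOA3 and NCOA2 did not overlap.

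**Figure D2:**
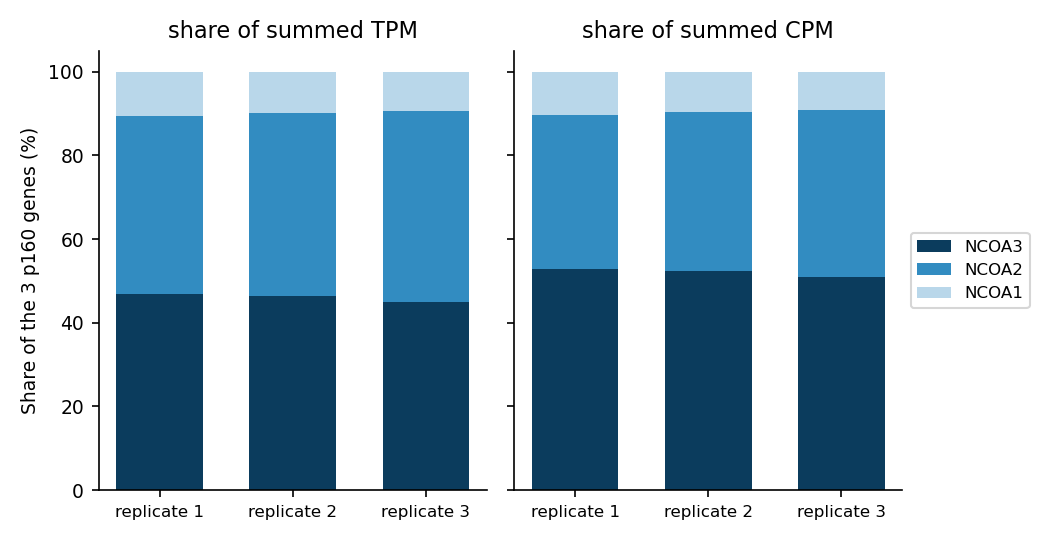
Share of NCOA3, NCOA2 and NCOA1 in the sum of the 3 p160 genes, in percent, for each library; left from TPM, right from CPM. NCOA1 takes 9.34 to 10.7% of TPM in every library, and NCOA3 takes 44.9 to 46.8% of TPM and 51.0 to 52.8% of CPM.

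The tie of NCOA3 and NCOA2 rested on the gene lengths. The deposited length is the merged length of the exons on which reads were counted, 8026 bases for NCOA3 and 6157 for NCOA2. The NCOA2 entry (chromosome 8, 70112032 to 70403785) stops short of both ends of the RefSeq span of 70109782 to 70456446. It left 54911 bases of that span out, most of them at the 5′ end, and any exons there were not counted. With the longest GENCODE v29 transcript of each gene as length, 7939 and 8447 bases, NCOA3 stood at 77.3 TPM and NCOA2 at 53.3 TPM, and NCOA2 fell below CARM1 (62.4 TPM). With the principal transcript, 4668 bases for NCOA3, the levels were 114 and 46.2 TPM, which moved both by over 1.5 times. Both alternatives were chosen after seeing the data, and they divide counts from one set of exons by the length of another. The NCOA1 entry also begins at 24584477, inside the RefSeq span from 24491254, and left 93224 bases of that span out, in which the exons were not counted.

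**Figure D3:**
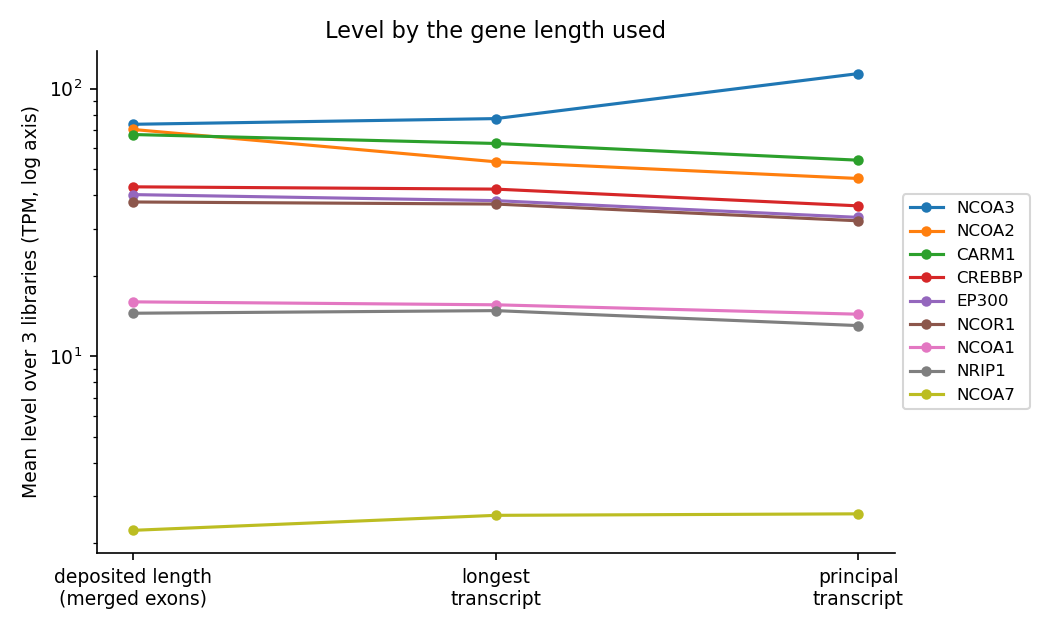
Mean level of each gene over the 3 libraries in TPM (log axis) with the deposited length, the longest transcript or the principal transcript as gene length; lines join the values of 1 gene. NCOA3 and NCOA2 part from 73.6 and 70.4 TPM to 114 and 46.2 TPM, while the other 7 genes keep their order among themselves.

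NCOA7 was the lowest of the 9. It is named a coactivator for binding the estrogen receptor, and its TLDc domain relates it to OXR1, a gene of the response to oxidative stress. NCOA7 (chromosome 6, 125781161 to 125932030) had 2.56, 2.01 and 2.14 TPM on 179, 142 and 178 counts, below 10 TPM in each library. Its protein had neither LXXLL nor CoRNR-type matches. Within the 5 TLDc genes, MEAK7 (listed under its older symbol TLDC1) stood at 42.7 ± 1.45 TPM and OXR1 at 22.2 ± 1.61 TPM, and NCOA7 (2.24 ± 0.284 TPM) exceeded only TLDC2 (0.387 ± 0.126 TPM, on 10, 9 and 6 counts). NCOA7 has a short form from a downstream start, and gene-level counts cannot tell its forms apart.

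CREBBP and EP300, which share most of their sequence and partners, were close to equal. CREBBP (chromosome 16, 3725055 to 3880120) had 43.8, 44.1 and 41.0 TPM on 4419, 4488 and 4911 counts. EP300 (chromosome 22, 41092610 to 41180077) had 40.6, 41.5 and 38.4 TPM on 3525, 3633 and 3948 counts. The ranges overlapped, yet CREBBP was the higher within each of the 3 libraries, at 51.7 ± 0.184% of the pair's summed TPM and 55.4 ± 0.182% of its CPM. The log2 ratio of EP300 over CREBBP was −0.10 ± 0.01 (exact two-sided sign-flip permutation p = 0.25, adjusted p = 0.292). Replicate 3 was the lowest for both genes.

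Of the CITED adaptors, small proteins that bind CREBBP and EP300, CITED2 stood at 109.5 ± 10.4 TPM, CITED4 at 17.1 ± 1.81 TPM and CITED1 at 0.159 ± 0.0773 TPM on 2, 4 and 2 counts. So 2 of the 3 reached 10 TPM (1 of 3 reached 10 CPM), and 1 was near the limit of 3 counts that a count of 0 allows.

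CARM1 (PRMT4) stood just below NCOA3 and NCOA2 by level, with values that differed little between libraries. CARM1 (chromosome 19, 10871577 to 10922772) had 67.0, 68.4 and 66.7 TPM on 1971, 2025 and 2325 counts. Its short length of 2968 bases put it there: by CPM it was sixth, at 75.4 ± 1.51 CPM. An exon of YIPF2 on the opposite strand covered 5 bases of it, 0.168% of its length, and no other of the 9 entries overlapped an exon of another entry. Of 9 arginine methyltransferase genes 8 reached 10 TPM, with a median of 39.6 TPM. PRMT1, which makes most asymmetric dimethylarginine in cells, led at 228 ± 26.2 TPM, PRMT6 followed at 92.5 ± 7.23 TPM, CARM1 was next at 67.4 ± 0.868 TPM, and PRMT8, a gene of the nervous system, had no counts.

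NCOR1, the corepressor of receptors without hormone, stood above NRIP1 and close to EP300. NCOR1 (chromosome 17, 16030094 to 16215560) had 37.1, 37.7 and 38.3 TPM on 3729, 3817 and 4553 counts. NRIP1 (chromosome 21, 14961235 to 15064805) had 15.1, 14.5 and 13.8 TPM on 1128, 1095 and 1228 counts. The groups of values did not overlap, and NCOR1 was 2.61-fold higher (log2 ratio 1.38 ± 0.08, higher in 3 of 3 libraries, exact two-sided sign-flip permutation p = 0.25, adjusted p = 0.292). The level of NRIP1, a known estrogen target, was measured after 48 h without estradiol, and no value with estradiol was there to set beside it.

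The genes of the NCOR1 complex were all above 10 TPM, 5 of 5, with a median of 79.0 TPM. HDAC3, the deacetylase of the complex, stood at 178 ± 2.28 TPM and GPS2 at 88.5 ± 5.94 TPM. Of 14 other corepressors 11 reached 10 TPM (median 69.1 TPM), led by PHB2 at 176 ± 4.47 TPM and HEXIM1 at 171 ± 2.62 TPM, while NR0B1, a receptor-like repressor of steroid-producing tissues, had no counts.

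The summed level of the 3 p160 coactivators was 4.24-fold that of NCOR1, from 4.15 to 4.34 over libraries (log2 ratio 2.08 ± 0.03, 3 of 3 libraries, exact two-sided sign-flip permutation p = 0.25, adjusted p = 0.292). On CPM the log2 ratio was 1.57. These are levels of transcripts and say nothing of the amounts of protein.

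Set side by side, the 9 levels fell into steps. NCOA3 (73.6 ± 2.07 TPM), NCOA2 (70.4 ± 2.19 TPM) and CARM1 (67.4 ± 0.868 TPM) stood highest, above 85.4, 84.7 and 84.0% of protein-coding entries. CREBBP (43.0 ± 1.69 TPM), EP300 (40.2 ± 1.63 TPM) and NCOR1 (37.7 ± 0.558 TPM) came next, then NCOA1 (16.0 ± 1.17 TPM) and NRIP1 (14.5 ± 0.616 TPM), and last NCOA7, above 41.1%. The steps between these sets were 1.57-fold from CARM1 to CREBBP, 2.36-fold from NCOR1 to NCOA1 and 6.47-fold from NRIP1 to NCOA7, each without overlap of the libraries.

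Within the steps neighbours were close. NCOA3 and NCOA2 changed places between libraries. NCOA2 over CARM1 (1.04-fold), CREBBP over EP300 (1.07), EP300 over NCOR1 (1.07) and NCOA1 over NRIP1 (1.1) kept their order in 3 of 3 libraries, although the differences of NCOA2 to CARM1 (3.0 ± 2.65 TPM) and of EP300 to NCOR1 (2.47 ± 2.04 TPM) were little larger than their own SD. The order without division by length was NCOA3, CREBBP, NCOA2, NCOR1, EP300, CARM1, NCOA1, NRIP1 and NCOA7, so 31 of 36 pairs kept their order.

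**Figure D4:**
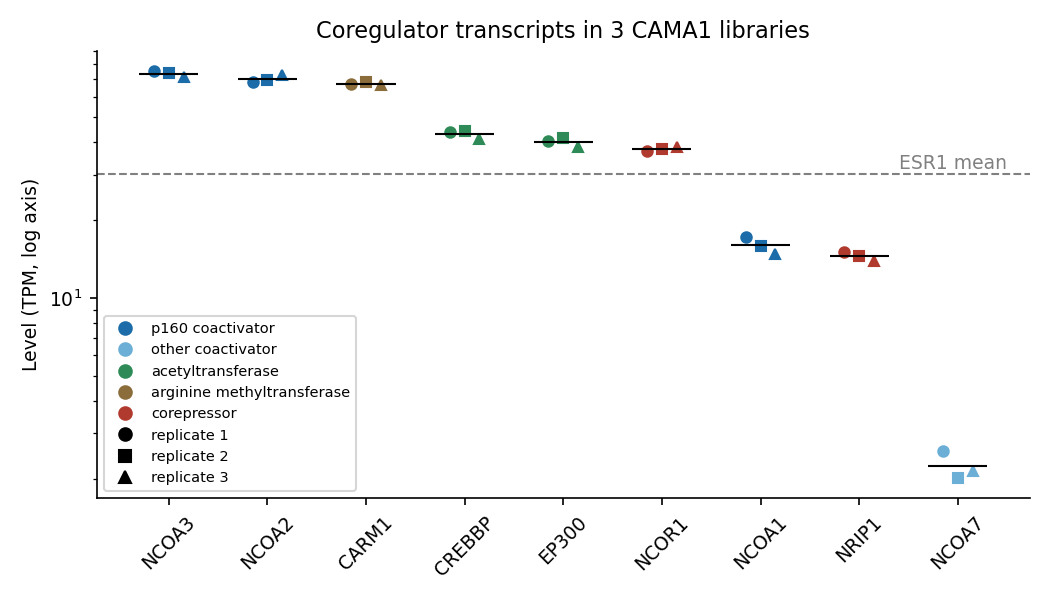
Level of each gene in TPM (log axis) in replicates 1 (circles), 2 (squares) and 3 (triangles), coloured by role, with black lines at the means and a dashed line at the mean of ESR1. The 6 genes from NCOA3 to NCOR1 lie above the dashed line at 30.1 TPM, and NCOA1, NRIP1 and NCOA7 lie below it.

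By TPM, 6 of these genes were expressed above the estrogen receptor gene, which itself stood above only 69.1% of protein-coding entries. ESR1, which codes for estrogen receptor alpha, had 29.4, 30.7 and 30.2 TPM. NCOA3, NCOA2, CARM1, CREBBP, EP300 and NCOR1 exceeded it by TPM in 3 of 3 libraries, and NCOA1, NRIP1 and NCOA7 lay below it in 3 of 3. For CARM1 this depended on length: on CPM it lay below ESR1 in each library (73.68, 76.15 and 76.42 against 75.88, 80.36 and 81.35 CPM). NCOA3 was 2.44-fold above ESR1 (log2 ratio 1.29 ± 0.06, exact two-sided sign-flip permutation p = 0.25, adjusted p = 0.292), NCOR1 1.25 ± 0.0207-fold, and NCOA1 stood at 0.531 ± 0.0480 and NCOA7 at 0.0745 ± 0.0111 of its level.

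Of 8 steroid and retinoid receptor genes 6 reached 10 TPM, with a median of 22.7 TPM. RXRA, the shared partner of many nuclear receptors, stood at 89.2 ± 10.4 TPM, above NCOA3 by mean level. The mineralocorticoid receptor gene NR3C2 stood at 0.367 ± 0.0539 TPM on 21, 25 and 22 counts, and the estrogen receptor beta gene ESR2 at 0.373 ± 0.0324 TPM on 21, 19 and 21 counts. These lowest 2 of the 8 overlapped.

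Most of the further coactivator genes listed also reached 10 TPM, as did 47.9% of all protein-coding entries. NCOA4, NCOA5 and NCOA6, which share the name but not the p160 build, stood at 102 ± 3.75, 42.6 ± 1.57 and 35.9 ± 1.43 TPM, so NCOA4 was above NCOA3 in every library (106, 102 and 98.7 TPM against 75.4, 73.9 and 71.3 TPM). Of 23 other nuclear receptor coactivators 21 reached 10 TPM (median 60.1 TPM). The RNA helicase genes DDX5 and DDX17, which also act in splicing, led at 738 ± 30.1 and 518 ± 24.2 TPM, and PPARGC1A, the coactivator of mitochondrial genes, was lowest at 1.18 ± 0.186 TPM. Over the 3 libraries, the protein-coding genes with the level profile nearest to those of the p160 genes, by the distance of log2(TPM + 0.1), were HDGFRP3 for NCOA3 (distance 0.0159), HADH for NCOA2 (0.0196) and SERINC5 for NCOA1 (0.0215). With 19020 candidates and 3 libraries of 1 group, such nearness mostly states that the levels are alike.

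All of the 9 genes but NCOA7 varied less between the libraries than the median tested gene. Library-scaled CPM (edgeR TMM factors) gave a coefficient of variation of 0.722% for NCOA3, 2.0% for CARM1, 2.19% for NRIP1, 2.23% for CREBBP, 2.66% for EP300, 3.58% for NCOR1, 5.25% for NCOA2, 5.29% for NCOA1 and 11.4% for NCOA7, against a median of 6.93% over 14453 tested genes. For NCOA7 counting alone gives 7.75%, so its wide spread goes with few counts. For NCOA3, CARM1 and NRIP1 the spread was smaller than counting error alone would give (1.27, 2.18 and 2.95%). The median covers genes of all count levels that passed the filter, and genes of like counts were not compared.

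NCOA2 and NCOR1 varied beyond counting error, both lowest in replicate 1 and highest in replicate 3. NCOA2 had 156, 161 and 173 CPM (edgeR scaling, chi-square test against Poisson sampling, adjusted p = 1.43e-05) and NCOR1 139, 144 and 150 CPM (adjusted p = 0.0149). The highest library exceeded the lowest 1.11-fold for NCOA2 and 1.07-fold for NCOR1. That is 2 of 9, while 41.6% of all tested genes varied by this test, so the share was not above that of genes at large. NCOA1 went the other way, at 44.2, 41.5 and 39.8 CPM (adjusted p = 0.0802).

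Against the spread that edgeR's trended negative binomial dispersion allows, 0 of the 9 and 1.22% of all genes varied, with 0 of the 9 at an unadjusted p under 0.05. Without replicate 3 none of the 9 and 8.04% of all genes passed the Poisson test (edgeR scaling, adjusted p = 0.414 for NCOA2 and 0.538 for NCOR1), and 1 of the 9 had an unadjusted p under 0.05. Without replicate 1 NCOA2 passed and NCOR1 did not (adjusted p = 0.137 for NCOR1), beside 32.5% of all genes, and without replicate 2 NCOA1 passed as well (adjusted p = 0.0334), beside 37.1%. The progesterone receptor gene PGR went the opposite way to NCOA2 and was lowest in replicate 3 (18.0, 17.9 and 9.77 TPM in replicates 1 to 3), and a relation between them was not tested.

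Replicate 1 had the lowest level of each listed immediate early gene, a class that many stimuli induce within minutes. The summed level of 8 immediate early genes was 243.5, 1058 and 1010 TPM, with EGR1 at 16.7, 395 and 402 TPM, IER2 at 74.1, 203 and 194 TPM and FOSB, the lowest of them, at 1.07, 5.68 and 5.66 TPM. The gap was not alike in all of them. ATF3, at 6.15, 9.53 and 6.39 TPM, had replicate 3 close to replicate 1, and JUN stood at 41.4, 87.9 and 55.9 TPM. The summed level of the 9 coregulators was 367, 368 and 359 TPM in the same libraries. Whether this difference between the libraries bears on NCOA2, NCOR1 or NCOA1 was not tested.

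**Figure D5:**
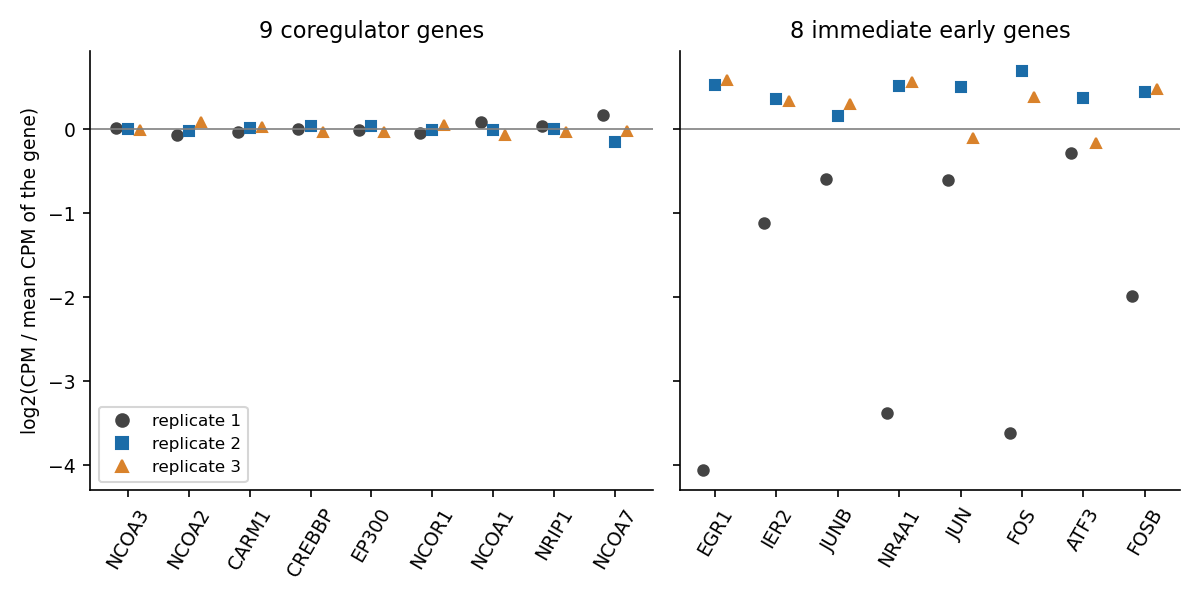
Deviation of each library from the mean of the gene, as log2(CPM / mean CPM), for the 9 coregulator genes (left) and 8 immediate early genes (right), on one vertical axis; symbols mark replicates 1, 2 and 3. The coregulators stay near 0, NCOA7 having the widest spread at 6.69, 5.34 and 5.85 CPM, whereas replicate 1 lies below the mean for all 8 immediate early genes.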

How the data were processed

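Poly-A RNA of CAMA1 cells was sequenced in 3 libraries of 1 group with a stranded mRNA kit, per the labels' protocols. The authors deposited expected counts, 1 value a gene and library, with exon positions and a length for each gene. The submitters' processing notes name hg38, TopHat, Subread and featureCounts; tool versions, strand settings and the treatment of multiply matching reads are not given in the sources used here. Of non-zero values 82.9 to 83.3% per library were whole, and all values of the 9 genes were whole. The deposited length equalled the merged exons for each of the 9.

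TPM was computed from counts and lengths over all 26485 entries. Protein-coding entries were found through RefSeq (GRCh38.p14), by symbol for 23758 entries and by an older symbol for 1582. Of the 9 genes, 9 matched. For the spread between libraries, counts were rounded and analysed across all genes in edgeR 4.0.16 with TMM scaling and its filter on low counts. Each gene was tested with a chi-square test against Poisson sampling (Benjamini-Hochberg, threshold 0.05). A check on simulated data used Poisson sampling only, so it could not show how the test behaves where libraries vary more than that. Patterns were counted in translations of 1 GENCODE v29 transcript a gene, in place of RefSeq proteins, with Biopython 1.88. The labels call the replicates biological without saying that cultures were separate, so p-values measure only the spread between these libraries, which may be technical. Limits from counts cover counting error only.

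The 9 genes, the 9 lists and the tests were chosen with earlier results of these data known. Named genes are the 9, the 2 highest and the lowest of each list, ESR1, the nearest profile of each p160 gene and any marker of a foreign cell type that reached 10 TPM; KRT19, KRT8, COL1A2, DCN, LUM, PGR, ESR2 and the immediate early genes of the plot were added after their values were seen. Some genes that the rule names are not reported here. Alternatives were CPM, other lengths, other minimums (1 or 20 counts), 1 TPM added to ratios, DESeq2 1.42.0 size factors, no filter, a negative binomial spread, and leaving out each replicate.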

Additional observations from a re-analysis of the deposited data

How the results depend on the processing

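The 7 ratios kept their direction, and the detection counts and 8 of the 9 list counts stayed within 1.5 times, under the alternatives run for each. Of the 36 pairs of the 9 genes, 31 kept their order on CPM, 35 with either transcript length and 36 otherwise. The other changes were in the spread between libraries and in 1 list. With the negative binomial dispersion 177 genes were called in place of 6018, and 0 in place of 2 of the 9. Leaving out 1 replicate in turn gave 1174 to 5435 genes and 0 to 3 of the 9; the lowest values came without replicate 3, the deepest library, where 1 of the 9 had an unadjusted p under 0.05. With 10 CPM in place of 10 TPM, 1 of the 3 CITED genes passed in place of 2. The log2 ratio of NCOA3 over NCOA2, 0.06 with deposited lengths, was 0.45 on CPM, 0.54 with the longest and 1.30 with the principal transcript, both lengths chosen after seeing the data. The causes were not tested. No paired analysis was possible because the series has 1 group. With 3 libraries no exact sign-flip test could pass 0.05, and NCOA7, with 142 to 179 counts, is the least precise of the 9.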

Other observations

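RefSeq promoter windows (300 bases around a transcript start, GRCh38.p14) were examined for 8 of the 9 genes, 17 windows in all. NCOA2 was left out. The median over 35116 windows was 14 CpG, and 13 of the 17 held at least that many. The windows of CARM1 and NCOA1 with the most held 56 and 55, and the only window of NCOA3 held 30. Those below the median were 2 of 3 windows of NCOA7 (8 and 4 CpG), 1 of 3 of NCOA1 and 1 of 2 of NCOR1 (0 each). The GGTCA element, the unit of which an estrogen response element has a pair, was found on either strand in 3 of the 17 windows, 2 of NCOA7 and 1 of NRIP1, against 37.4% of all windows. The inverted pair of it with 3 bases between was found in none of the 17 and in 0.057% of all windows. No match says only that these letters are not in these windows.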
